A study of Homo sapiens with 12 samples.

Results

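The MYC-MAX network is represented here by 9 genes: MYCN, MYC and MYCL, their shared partner MAX, the MAX partners MXD3, MXD4, MNT and MGA, and the MAX relative MLX. Its members were all probes of the bead array that carried the symbol of one of these genes. This gave 18 of 47321 probes for 9 of the 20046 genes named on the array. The rule used no measured value, but the genes were chosen with earlier results of these data known. SH-SY5Y cells, an established human cell line from a neuroblastoma, a tumour of the sympathetic lineage, were grown in DMEM/F12 medium with 10% serum and transfected with siRNA by a lipid reagent. The 3 groups of 4 arrays differed in the siRNA: a control siRNA, s18789 or s18790, the latter pair both directed against SETD1A, with 96 hours between transfection and harvest. The labels do not state whether the samples of each group came from separate cultures, and p-values therefore reflect only the spread among these samples, possibly technical. The 3 groups are compared to ask which transcripts change when SETD1A, a methyltransferase of lysine 4 of histone H3, is lowered.

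MYC proteins are transcription factors that bind DNA only when paired with MAX, and the pair binds the E-box CACGTG and promotes growth, ribosome production and cell division. MXD proteins and MNT compete for MAX and recruit SIN3 and histone deacetylases to the same sites, while MGA brings MAX into a Polycomb-type repressive complex and MLX pairs with the glucose-sensing factors MLXIP and MLXIPL as well as with MNT and some MXD proteins. MYCN is the family member of the developing peripheral nervous system, and its amplification marks an aggressive form of neuroblastoma. SH-SY5Y is a line without that amplification.

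Of the 18 probes, 10 were detected on at least 4 arrays and entered the tests, and they cover 8 of the 9 genes. A probe counted as detected on an array where its detection p, the share of negative control beads at least as bright, was under 0.01. The other 8 probes were left out of the tests, 7 of them because they were detected on no array. MYCL, the family member first found in lung cancer, had 3 probes (ILMN_1754541, ILMN_1795270 and ILMN_1803650), all among these 7, with intensities of 47.1 to 86.6 and a lowest detection p of 0.0156. No level of MYCL can therefore be given for any group.

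**Figure D1:**
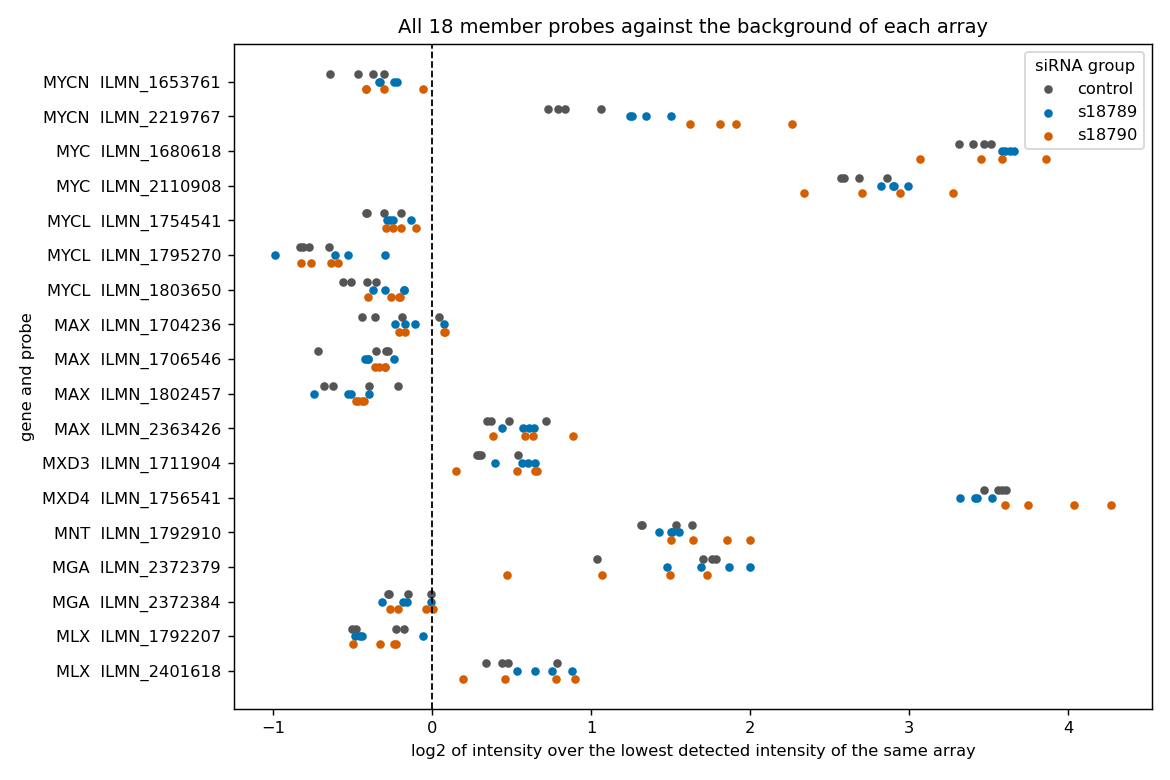
All 18 member probes on the 12 arrays. Each point is one array, coloured by siRNA group; the horizontal axis is the log2 of the probe's intensity over the lowest intensity of any detected probe on the same array, so points left of the dashed line lie below the dimmest detected probe. The 3 MYCL probes lie left of the line on every array, as does one of the 2 MYCN probes, and 9 probes were detected on all 12 arrays.

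The arrays differed from each other also within the siRNA groups, and the cause was not tested. Their median intensity lay between 63.1 and 70.2, and between 29.1% and 33.6% of probes were detected. A pair of arrays stood apart from their groups on the first principal component (60.6% of the variance), namely s18790 replicate 2, with a mean correlation of 0.928 with its group, and control replicate 4, with 0.971. On s18790 replicate 2 the kept member probes other than MGA and the dimmer MAX probe lay above the mean of the other s18790 arrays, by 0.21 for MXD4 up to 0.82 for MLX on the log2 scale, and the probe of MGA lay 1.05 below it. Results are given with and without these arrays where they rest on them. Of the markers of adrenergic neuroblastoma cells, 11 of the 12 with a probe were detected on every array (PHOX2A, HAND1, HAND2, GATA2, GATA3, ISL1, TBX2, DBH, CHGA, CHGB and DLK1), and TH, an enzyme of dopamine synthesis, was detected on none. Of 5 epithelial markers, CDH1, KRT8, KRT18 and KRT19 were detected on 0 arrays and EPCAM on 9, at log2 levels of 5.79 to 6.21 in controls, 5.50 to 5.94 with s18789 and 5.33 to 5.81 with s18790. Of the 3 leukocyte markers with a probe, PTPRC and CD3E were detected on 0 arrays and CD14 on 10, at 5.56 to 5.78, 5.64 to 5.91 and 5.85 to 6.41 in the same order. Neither EPCAM nor CD14 was called, and their part in the results was not tested.

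SETD1A itself, measured by 1 probe, had log2 levels of 7.52, 7.64, 7.50 and 8.03 with the control siRNA, 7.34, 7.22, 7.10 and 7.30 with s18789 and 6.98, 7.45, 6.90 and 6.83 with s18790. Both siRNA groups lay below all 4 control arrays, while they overlapped each other. The difference from control was -0.63 with s18790 (95% interval -0.96 to -0.29; limma adjusted p = 0.0276) and -0.43 with s18789 (-0.77 to -0.10; adjusted p = 0.616). Removing a single array ended the s18790 call for controls 1 and 2 and for s18790 arrays 1 and 4 (adjusted p of 0.0507, 0.0683, 0.0730 and 0.0660), as did 3 other settings (0.0502 to 0.0999).

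MYCN was the member with the largest difference, and its normalized levels ranked control, s18789, s18790 with no overlap between neighbours. The deposited intensities of its detected probe, ILMN_2219767, were 186.1, 145.4, 171.8 and 180.2 with the control siRNA, 207.2, 261.6, 211.5 and 237.2 with s18789 and 334.5, 446.1, 301 and 260.7 with s18790. After background correction and normalization, the log2 levels were 7.04, 6.77, 6.92 and 7.07 in controls (6.95 ± 0.14, SD, n = 4), 7.39, 7.68, 7.27 and 7.41 with s18789 (7.44 ± 0.17, SD, n = 4) and 8.21, 8.69, 8.06 and 8.25 with s18790 (8.30 ± 0.27, SD, n = 4). On the deposited scale s18790 replicate 4 (260.7) lay just below s18789 replicate 2 (261.6), and after normalization the groups no longer overlapped.

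With s18790, MYCN rose 2.55-fold (log2 difference 1.35 ± 0.14, SE; 95% interval 1.04 to 1.66; limma adjusted p = 0.000262), and it ranked number 25 of 15922 probes by p. An exact permutation test (two-sided, all 70 ways to split the 8 arrays) gave p = 0.0286, the smallest it can give. Without s18790 replicate 2 and control replicate 4 the difference was 1.26 (adjusted p = 8.93e-05). With s18789, all 4 arrays lay above all 4 controls and the difference was 0.48 ± 0.14 (SE; 0.18 to 0.79; 1.4-fold; exact permutation p = 0.0286), but it did not pass the test over all probes (limma adjusted p = 0.422). Without both arrays that stood apart it was 0.52 (adjusted p = 0.0556). Set directly against s18789, s18790 gave a MYCN level 1.82-fold higher (0.87 ± 0.14, SE; 0.56 to 1.17; limma adjusted p = 0.0067), or 0.74 on the log2 scale without those arrays (adjusted p = 0.00227). SETD1A differed between the same siRNAs by -0.20 (interval -0.53 to 0.14; adjusted p = 0.468), or by -0.33 without those arrays (adjusted p = 0.0407).

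The second MYCN probe, ILMN_1653761, was detected on 0 of 12 arrays, with intensities of 61.8 to 84.4 and detection p of 0.0143 to 0.269. It gives no second reading of the rise, so the MYCN result rests on a single probe. In RNA of whole cultures, a change in the number of cells of a type and a change in RNA per cell cannot be told apart.

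**Figure D2:**
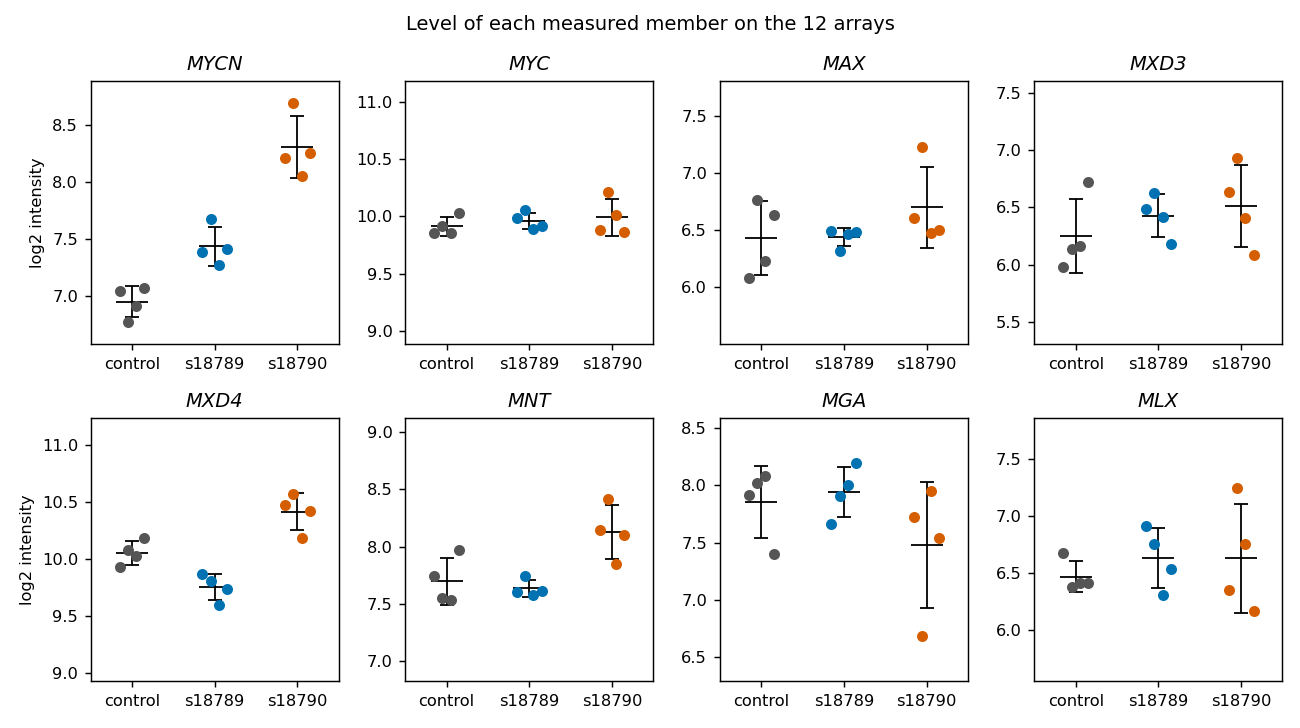
Levels of the 8 measured genes on each array. The vertical axes are log2 intensity after background correction and quantile normalization and differ between panels, all spanning the same height; points are arrays, long bars the group mean and short bars the SD (n = 4). The MYCN group means are 6.95, 7.44 and 8.30 and its arrays do not overlap between groups, the MYC groups overlap, and the s18789 arrays of MXD4 lie below the controls while the s18790 arrays lie level with or above them.

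The MYCN promoter is shown because its transcript was the one that rose against control. The sequence is the RefSeq window around the annotated start, on the plus strand of GRCh38.p14 at chr2:15940300-15940599, with GC boxes (GGGCGG) and E2F sites (TTTNNCGC), searched on both strands, in capitals.
MYCN: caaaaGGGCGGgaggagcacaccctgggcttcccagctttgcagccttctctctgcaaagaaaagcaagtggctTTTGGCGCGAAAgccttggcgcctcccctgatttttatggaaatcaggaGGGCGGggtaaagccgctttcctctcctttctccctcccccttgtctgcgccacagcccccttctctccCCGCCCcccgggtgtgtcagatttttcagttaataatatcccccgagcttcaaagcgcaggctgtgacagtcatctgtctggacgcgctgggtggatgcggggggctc
The window has a GC content of 58.7% and holds 3 GC boxes, at -245, -127 and -58 from the start, and 2 E2F matches that overlap on opposite strands at -176 and -172. It holds no CACGTG, the E-box of MYC-MAX pairs. Among 35116 windows of the same length, 45% held a GC box, 6.89% an E2F match and 7.26% an E-box. These matches describe the letters only, and binding was not measured.

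MYC, the widely expressed founding member, had 2 probes detected on every array and was near the same level in all groups. Its probe ILMN_1680618 read 9.86, 9.91, 9.85 and 10.03 in controls, 9.99, 10.05, 9.89 and 9.92 with s18789 and 9.88, 10.21, 10.01 and 9.87 with s18790. The 3 groups overlapped, and the differences from control were 0.05 with s18789 (interval -0.17 to 0.27) and 0.08 with s18790 (-0.14 to 0.30; limma adjusted p = 0.661). The second probe, ILMN_2110908, gave 0.11 (-0.19 to 0.41) and 0.19 (-0.12 to 0.49; adjusted p = 0.436). The upper ends of the s18790 intervals correspond to 1.23-fold and 1.4-fold.

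MAX, without which MYC proteins do not bind DNA, was called in no comparison. Its bright probe, ILMN_2363426, read 6.08, 6.77, 6.23 and 6.63 in controls, 6.49, 6.32, 6.47 and 6.48 with s18789 and 6.60, 7.22, 6.47 and 6.50 with s18790. The highest value was that of s18790 replicate 2, and the groups overlapped. The difference with s18790 was 0.27 (-0.13 to 0.67; limma adjusted p = 0.387), and without both arrays that stood apart it was 0.17. A probe for another MAX transcript, ILMN_1704236, was detected on 4 arrays (control replicate 1, s18789 replicate 3, s18790 replicates 3 and 4) and gave 0.36 with s18790 (-0.0044 to 0.72; adjusted p = 0.206). The remaining MAX probes, ILMN_1706546 and ILMN_1802457, were detected on 0 arrays.

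Among the members that compete with MYC proteins for MAX, MXD4 was the one whose level separated the siRNAs in opposite directions around control. MXD4 is an MXD protein expressed mostly in cells that leave the cycle and differentiate. Its log2 levels were 9.93, 10.07, 10.02 and 10.18 in controls, 9.86, 9.81, 9.60 and 9.74 with s18789 and 10.47, 10.57, 10.18 and 10.42 with s18790. All s18789 arrays lay below all controls, and the s18790 arrays above them, although s18790 replicate 3 and control replicate 4 were equal to 2 decimals. On the deposited scale the s18790 arrays (1028 to 1787) overlapped the controls (1036 to 1271). Between the siRNAs MXD4 was 1.58-fold higher with s18790 (0.66 ± 0.11, SE; 0.42 to 0.90; limma adjusted p = 0.00733), and 0.61 higher on the log2 scale without both arrays that stood apart.

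Against control, neither MXD4 difference passed the test. It was -0.30 with s18789 (-0.54 to -0.06; limma adjusted p = 0.629) and 0.36 with s18790 (0.12 to 0.60; adjusted p = 0.0635), each with an exact permutation p of 0.0286. The s18790 difference was called under 6 other settings, among them without both arrays that stood apart (0.35; adjusted p = 0.0440), and without s18790 replicate 3 alone (adjusted p = 0.0287). The direct call between siRNAs was lost with median scaling of the arrays in place of quantile normalization (0.54; adjusted p = 0.0714).

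The MXD4 promoter is shown for comparison with that of MYCN, since these were the members called between the siRNAs. It lies on the minus strand of GRCh38.p14 at chr4:2262060-2262359 and is printed in the direction of the gene, with matches in capitals.
MXD4: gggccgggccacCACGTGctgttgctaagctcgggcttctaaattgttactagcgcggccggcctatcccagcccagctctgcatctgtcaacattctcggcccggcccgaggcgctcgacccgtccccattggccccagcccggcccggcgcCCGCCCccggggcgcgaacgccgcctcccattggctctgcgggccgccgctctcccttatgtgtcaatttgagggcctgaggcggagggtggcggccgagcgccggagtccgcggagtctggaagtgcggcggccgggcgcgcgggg
Its GC content is 72.3%, and it holds 1 E-box, at -238 from the start, and 1 GC box, at -97, with no E2F match. The windows of MNT and MLX also held 1 E-box each, at -193 and -50, while no window of MYC was searched.

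MNT, the most broadly expressed MAX-bound repressor, read 7.75, 7.55, 7.53 and 7.97 in controls, 7.61, 7.74, 7.57 and 7.61 with s18789 and 8.15, 8.42, 7.85 and 8.10 with s18790. The s18790 arrays lay above every s18789 array, and 3 of the 4 lay above every control. The difference of s18790 was 0.43 from control (0.14 to 0.72; limma adjusted p = 0.0692) and 0.49 from s18789 (0.20 to 0.79; adjusted p = 0.0576), neither past the test. Without both arrays that stood apart they were 0.42 (adjusted p = 0.0202) and 0.40 (adjusted p = 0.0300), and each was also called without control replicate 4 or without s18790 replicate 3 alone. Counting the removal of both arrays, the difference from control was called under 2 of 10 other settings and that between the siRNAs under 6 (adjusted p of 0.0300 to 0.0498). With s18789 the difference from control was -0.06 (-0.36 to 0.23).

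MXD3, an MXD protein of dividing cells, and MLX, the partner shared with glucose sensing, were called in no comparison. MXD3 read 5.98 to 6.72 in controls, 6.18 to 6.63 with s18789 and 6.08 to 6.93 with s18790, and its difference with s18790 was 0.26 (-0.16 to 0.69; limma adjusted p = 0.428). MLX, through its detected probe ILMN_2401618, read 6.37 to 6.67, 6.31 to 6.91 and 6.17 to 7.24 in the same order, and the siRNAs differed from control by 0.16 each (adjusted p = 0.668 with s18790). The groups overlapped for both genes. The other MLX probe, ILMN_1792207, was detected on 0 arrays.

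MGA was the only member with a negative difference from control with s18790, and its spread was the widest. Its probe ILMN_2372379 read 7.92, 8.02, 8.08 and 7.40 in controls, 7.66, 7.90, 8.0 and 8.19 with s18789 and 7.72, 6.69, 7.95 and 7.54 with s18790. The lowest values of the control and s18790 groups were on the arrays that stood apart. The difference with s18790 was -0.38 (-0.91 to 0.15; limma adjusted p = 0.365), or -0.27 without those arrays (adjusted p = 0.212). The second MGA probe, ILMN_2372384, was detected on 1 array, s18790 replicate 1.

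Counted over the 10 tested probes, limma called 0 with s18789, where 0.0942% of all 15922 probes were called (0.0565% higher). At an unadjusted p under 0.05 there were 2, MYCN and MXD4, against 6.02% of all probes. With s18790, 1 was called (MYCN, higher), where 8.32% of all probes were called and 4.03% were higher, so the share of members called lies near the background. Between the siRNAs 2 were called (MYCN and MXD4, higher with s18790), against 4.2% of all probes, 2.34% higher. The median difference of the 10 probes was 0.10 with s18789 and 0.27 with s18790, where the medians over all probes were 0.01 each. Of the 10 s18790 differences, 9 were positive, as were 8095 of those of all 15922 probes. The arrays of s18790 and control did not overlap for MYCN and MXD4, while this held in either direction for 13.3% of all probes. Those of s18789 and control did not overlap for the same genes, against 7.08%, and those of the siRNAs did not overlap for MYCN, MXD4 and MNT, against 14% of all probes. Both siRNAs were compared with the same control arrays.

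**Figure D3:**
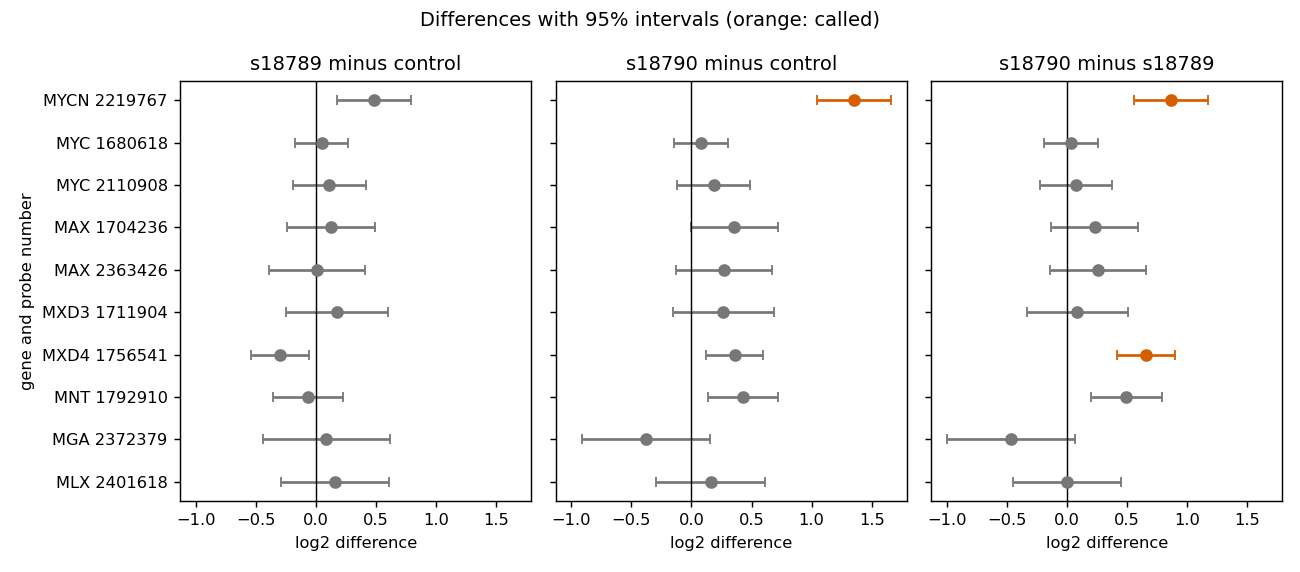
Log2 differences of the 10 tested member probes in the 3 comparisons. Points are differences of group means, bars are 95% intervals from the limma model and orange marks an adjusted p under 0.05. MYCN stands at 1.35 with s18790, and MXD4 lies at -0.30 with s18789, 0.36 with s18790 and 0.66 between the siRNAs.

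Genes around the network were followed through 8 lists, in which the probe with the highest mean level stood for a gene. Of all 9833 genes measured, 0.102% were called with s18789, 9.85% with s18790 and 5.07% between the siRNAs, and the median differences were 0.01, 0.02 and 0.02. With s18789 no gene of any list was called by limma. Over the 8 lists, of 2 to 27 measured genes each, 4 genes had an unadjusted p under 0.05, as did 624 of all 9833 genes.

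Other partners of MAX and MLX were measured for 2 of 4 genes. MXD1, a MAX partner induced during differentiation, rose by 0.59 with s18790 (1.5-fold; limma adjusted p = 0.0055) and was 0.41 higher than with s18789 (adjusted p = 0.0481). MXD1 levels ran from 6.38 to 6.67 in controls, from 6.60 to 6.82 with s18789 and from 6.99 to 7.25 with s18790, so the s18790 arrays lay above all others. The call between siRNAs was lost without any of 9 single arrays (adjusted p of 0.061 to 0.127). MXI1, another such repressor, differed from control by -0.06 with s18790, and the glucose sensors MLXIP and MLXIPL were not above background.

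Cofactors and corepressors of MYC proteins were measured for 23 of 26 genes, of which 1 rose and 1 fell with s18790 (median difference 0.12). HDAC1, a deacetylase recruited by MXD proteins and MNT, rose by 0.35 (limma adjusted p = 0.0314) and was 0.36 higher than with s18789 (adjusted p = 0.0437). RUVBL1, an ATPase of chromatin remodelling complexes that MYC recruits, fell by 0.47 (adjusted p = 0.0196), while its second probe gave -0.38 (adjusted p = 0.162). The HDAC1 call against control was lost without any of 4 single arrays, that between the siRNAs without any of 9 (adjusted p of 0.0613 to 0.122), and the RUVBL1 call without either of 2, namely control replicate 1 and s18790 replicate 1. WDR5, a subunit of the SETD1A complex that also binds MYC and was singled out after its values were seen, differed by 0.27 with s18790 (adjusted p = 0.314).

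Regulators of MYC protein stability were measured for 16 of 20 genes, and 1 was called. BTRC, a ubiquitin ligase subunit that stabilizes MYC, rose by 0.36 with s18790 (limma adjusted p = 0.0452), a call that was lost without any of 10 single arrays (adjusted p of 0.0549 to 0.138). Of genes beside MYCN on its chromosome or acting on its RNA, 7 of 13 were measured and 0 were called. DDX1, a helicase gene often co-amplified with MYCN, differed by -0.53 with s18790 (interval -1.22 to 0.16; adjusted p = 0.326). E2F1, a factor that drives MYCN transcription, differed by 0.34 (adjusted p = 0.406).

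Target genes of MYC proteins were divided by function. For ribosome biogenesis, 21 of 25 genes were measured and 0 were called in any comparison. Of the 21 genes, 16 had a positive difference with s18790 and 18 with s18789, with medians of 0.17 and 0.11. Over all 9833 genes, 5134 and 5188 differences were positive in the same order. The rule named BYSL (0.40 with s18790; limma adjusted p = 0.138) and MRTO4 (0.27; adjusted p = 0.323), both factors of ribosome assembly. For metabolism and translation, 2 of 27 measured genes rose with s18790 and the median was 0.00. They were SRM, an enzyme of polyamine synthesis (0.54; adjusted p = 0.044), and SLC7A5, a transporter of large amino acids (0.51; adjusted p = 0.040).

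For the cell cycle, 12 of 16 target genes were measured. CDC25A, a phosphatase that activates cyclin-dependent kinases, rose by 0.41 with s18790 (limma adjusted p = 0.0267), while its second probe gave 0.10 (adjusted p = 0.812). TYMS, an enzyme of thymidylate synthesis, was lower with s18790 than with s18789 by -0.46 on the log2 scale (adjusted p = 0.0485). The SRM call was lost without any of 7 single arrays, SLC7A5 without any of 9, CDC25A without any of 4 and TYMS without any of 11. Without both arrays that stood apart, 2 ribosome biogenesis, 6 metabolism and 3 cell cycle genes were called with s18790, where the share of all genes called was 19.9%.

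Among the genes that MYC or MYCN is known to repress, those called with s18790 were all higher. With s18790, 5 of 13 measured genes rose (38.5%, where 5.06% of all genes rose) and none fell, with a median difference of 0.40, and between the siRNAs 6 of 13 were higher with s18790 (46.2%, where 3.01% of all genes were). With s18789 none was called and the median was -0.11. All 5 were higher in the group in which MYCN was highest, opposite to the name of the list. The list was chosen with earlier results of these data known. Without both arrays that stood apart, 7 and 8 of the 13 were called. Of all genes, 19.9% and 11.9% were then called in either direction, and 9.95% and 5.83% were called higher. Over all settings the counts of called genes ran from 2 to 8, with 2 in both comparisons under median scaling. There 5.67% and 4.92% of all genes were called in either direction, and 1.3% and 0.773% higher.

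CEBPA, a factor of differentiation, was the gene of this list with the largest difference. It was detected on 4 s18790 arrays, 2 control arrays and no s18789 array, with log2 levels of 6.35 to 7.1 on all 4 s18790 arrays and 5.37 to 5.92 on all 4 controls. It was 2.14-fold higher with s18790 than in controls (limma adjusted p = 0.00278) and at least 2.2-fold higher than with s18789 (adjusted p = 0.00315). The bound sets the s18790 mean against the level of the dimmest detected probe of each s18789 array. NDRG4, of the N-myc downstream-regulated family, rose by 0.69 (adjusted p = 0.00655), from 8.53 to 8.83 in controls to 9.04 to 9.50 with s18790. Its second kept probe, detected on 4 arrays, gave 0.68 (adjusted p = 0.0837), and 0.51 between the siRNAs (adjusted p = 0.214). SFRP1, a secreted WNT antagonist, rose by 0.55 (adjusted p = 0.00984), and its levels of 9.39 to 9.71 lay above every control (8.93 to 9.02). The calls of CEBPA and NDRG4 (brighter probe) against control were kept with any single array left out and under the other settings in which they were tested, and that of SFRP1 was lost with median scaling (adjusted p = 0.0882).

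NDRG1, the founding member of the N-myc downstream-regulated family, rose by 0.60 with s18790 (limma adjusted p = 0.0438), and DKK3, a secreted protein related to WNT inhibitors, by 0.46 (adjusted p = 0.0345). NDRG1 lost its call without any of 10 single arrays and DKK3 without any of 5. Between the siRNAs NDRG1 was 0.79 higher with s18790 (adjusted p = 0.0219), DKK3 0.70 (adjusted p = 0.00871), NDRG4 0.70 (adjusted p = 0.0113) and SFRP1 0.69 (adjusted p = 0.00582). CDKN1A, the cell cycle inhibitor p21, was 0.60 higher with s18790 than with s18789 (adjusted p = 0.0245), and against control the difference was 0.40 (adjusted p = 0.0785). Between the siRNAs, the CDKN1A and NDRG1 calls were each lost without any of 4 single arrays (adjusted p of 0.0597 to 0.0867 and 0.0642 to 0.0793). With median scaling CEBPA and NDRG4 were the genes of the 8 lists that kept their call against control, and CEBPA the one that kept it between the siRNAs.

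**Figure D4:**
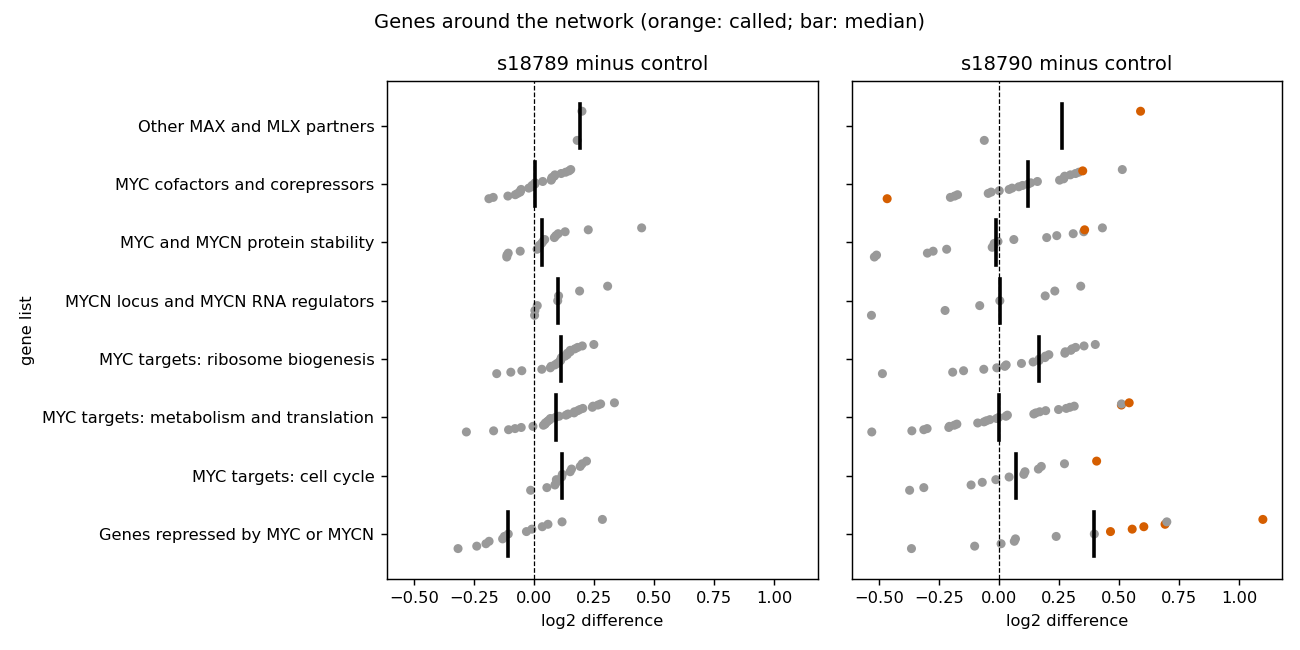
Log2 differences from control of the measured genes in 8 lists around the network. Each point is a gene, the black bar the list's median and orange an adjusted p under 0.05, with s18789 on the left and s18790 on the right. No gene is called with s18789; with s18790 the repressed genes have 5 called members and a median of 0.40.

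Markers of cell state moved beside these differences. With s18790, the adrenergic factors HAND1 and GATA3 and the imprinted gene DLK1 (brighter of 2 kept probes) rose by 1.05, 0.45 and 0.83 (limma adjusted p of 0.000341, 0.0196 and 0.00159). The granule protein CHGB fell by 0.69 (adjusted p = 0.00159), and 7 of the 11 measured adrenergic markers were not called. The 4 called were 36.4% of those measured, where 9.85% of all genes were called with s18790. The mean log2 level of the 11 measured adrenergic markers lay between 10.94 and 11.04 in controls, 10.88 and 11.03 with s18789 and 10.98 and 11.23 with s18790. For the 5 of 10 mesenchymal markers measured, the mean lay between 7.64 and 7.68, 7.41 and 7.54, and 7.33 and 7.55 in the same order. Within that list YAP1 fell with s18790 by 1.12 and SNAI2 (brighter of 2 kept probes) by 0.48, whereas COL1A1 rose by 0.64 (adjusted p of 0.000863, 0.0165 and 0.0141). These 3 were 60% of the 5 measured, against the same 9.85% of all genes. YAP1 was detected on all 4 control arrays but on 1 of the 4 s18790 arrays, so the size of its fall is uncertain. With s18789, SNAI2 differed from control by -0.54 and DLK1 by 0.50 (limma adjusted p of 0.124 and 0.226), neither called. HAND1, GATA3, CHGB, YAP1 and COL1A1 differed with s18789 by 0.12, 0.15, -0.17, -0.13 and 0.13, and none was called. Values of the second kept probes of SNAI2 and DLK1 are not given here. The neural crest gene SOX10 and the Schwann cell gene S100B were detected on 0 arrays. The part of these shifts in the MYCN difference was not tested.

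The genes whose levels followed MYCN most closely over the 12 arrays, among 9833 genes, were MAGEC2 (r = 0.975), MARCHF4 (0.970), CPEB1 (0.969), TMEFF2 (0.968) and PDLIM7 (0.966). MAGEC2 is a cancer-testis antigen, MARCHF4 a membrane ubiquitin ligase, CPEB1 a regulator of cytoplasmic polyadenylation, TMEFF2 a transmembrane protein with follistatin domains and PDLIM7 a cytoskeletal adaptor. These values describe the 3 groups as much as the arrays, since the arrays of a group share their siRNA, and after subtraction of group means r was 0.705, 0.754, 0.804, 0.601 and 0.755. MAGEC2, CPEB1 and TMEFF2 were below background on every control array, and with s18790 they were at least 2.8-fold, 1.44-fold and 2.12-fold higher (limma adjusted p of 5.19e-05, 0.00104 and 5.19e-05). The genes most like and most opposite to MYCN were picked by r on these same arrays, where the MYCN groups did not overlap. Their group differences and within-group r therefore follow partly from that choice and are no separate test.

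The genes that ran most strongly opposite to MYCN were MTMR10, a myotubularin-related protein (r = -0.976), DERA, an aldolase of deoxyribose phosphate (-0.970), and CHGB (-0.965). Within groups the values were -0.826, -0.719 and -0.670. Among the network itself, MNT followed MYCN most closely (0.834, and 0.862 within groups), followed by MXD4 (0.663 and 0.619), while MGA ran opposite (-0.620 and -0.777). MYC, with 0.489 over all arrays, had 0.693 within groups, where s18790 replicate 2 was the highest array for MYCN, MYC and MNT and the lowest for MGA.

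**Figure D5:**
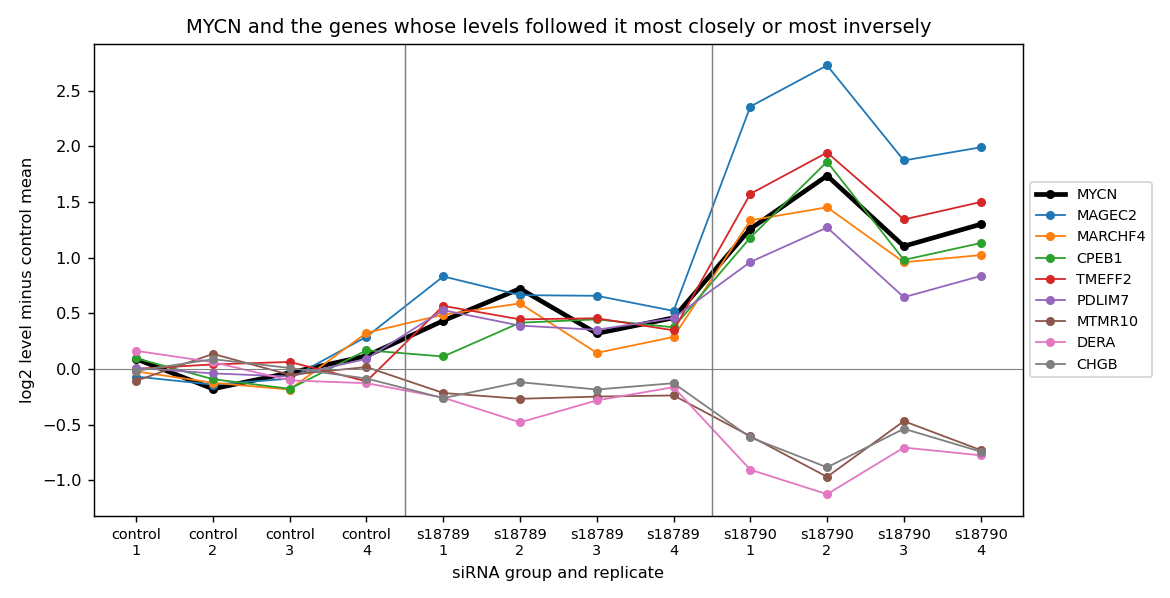
MYCN (black) and the 5 genes most like it and 3 most opposite to it over the 12 arrays. The vertical axis is the log2 level minus the gene's control mean, the horizontal axis lists arrays by siRNA group and replicate, and lines only join the points of a gene. MYCN lies at 1.1 to 1.74 on the s18790 arrays, with s18790 replicate 2 highest.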

How the data were processed

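RNA from SH-SY5Y cells was hybridized to Illumina bead arrays in a single colour, 1 array per sample, with 4 arrays in each of 3 groups taken from the labels. The authors deposited a linear mean intensity and a detection p-value for every probe. Per the submitters' processing notes GenomeStudio was used, and the values show no normalization between arrays. A second table deposited by the authors holds log2 values of the same arrays, with no statement of the transform, and it served only as an alternative. The probe annotation named 30113 of 47321 probes with 1 symbol and left 17200 unnamed here.

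Background was corrected with limma 3.58.1 in R 4.3.3 through the detection p-values with an offset of 16, followed by quantile normalization on the log2 scale. Probes were kept with a detection p under 0.01 on at least 4 of 12 arrays, which left 15922 probes. All arrays entered a linear model with 1 mean per group (9 residual degrees of freedom) and moderated statistics, and a probe was called at a Benjamini-Hochberg adjusted p under 0.05 over all kept probes. Member probes also had an exact permutation test, two-sided, over arrays. The linear model and its calls were tested on simulated data with independent noise for each probe. Background correction, normalization, the detection filter and the permutation test were not part of that test. Where a gene was below background on all arrays of a group, its fold is given as a bound. The number of arrays limits the precision. The members, lists and tests were chosen with earlier results of these data known. Named genes were SETD1A, every member probe, list members called in any comparison or else up to 2 with the largest mean difference over both siRNAs, and the 5 genes most like and 3 most unlike MYCN by Pearson r. Replicate numbers were not used as pairs in the main fit. Arrays with the same number had correlations of deviations between -0.583 and 0.575, and those with different numbers between -0.784 and 0.810. Pairing was thus not seen, but this range is too wide to exclude it. Promoter windows came from RefSeq (GRCh38.p14), and among the members no window of MYC was searched.

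Alternatives were no background correction, an offset of 50, median scaling, the authors' log2 values, no detection filter, detection on all arrays, only the groups compared, the replicate block, array weights and leaving out arrays. No chip or slide was given for the arrays, and none was analysed here.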

Additional observations from a re-analysis of the deposited data

Results flagged for a closer look

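Single arrays lay far from the other 3 of their group for 7 of the 87 groups of 4 arrays tested, where chance gives about 1 in 20. Among members, MAX (ILMN_2363426) was at 6.32 on s18789 replicate 2 against 6.47 to 6.49 on the others, and MLX (ILMN_2401618) at 6.67 on control replicate 1 against 6.38 to 6.42. On s18790 replicate 2, an array that stood apart, HDAC1 was at 11.03 (others 10.83 to 10.85), MRTO4 at 8.06 (7.57 to 7.63) and DKK3 at 11.40 (11.06 to 11.09). BTRC was at 6.21 on s18789 replicate 4 (others 6.08 to 6.09), and E2F1 at 5.39 on s18790 replicate 3 (others 6.23 to 6.37).

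The siRNAs against SETD1A differed from each other past the limma test for the members MYCN (0.87 on the log2 scale, s18790 minus s18789) and MXD4 (0.66). The same held among the listed genes for MXD1 (0.41), HDAC1 (0.36), CDKN1A (0.60), NDRG1 (0.79), NDRG4 (0.70), DKK3 (0.70), CEBPA (1.21) and SFRP1 (0.69), and in the other direction for TYMS (-0.46). For MXD4 the s18789 arrays lay below the controls and the s18790 arrays above them.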

How the results depend on the processing

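Over 22 alternatives the MYCN call with s18790 was kept in each, with differences of 1.04 to 1.43, as was the MYCN call between siRNAs (0.69 to 0.95), while the s18789 difference passed the test with array weights (0.55, adjusted p = 0.0128) and under no other. The count of all probes called with s18789 (15) was 9 with detection on all arrays, 41 with only the groups compared, 3 with the replicate block, 385 with array weights, 124 without both arrays that stood apart and 3 to 80 with 1 array left out. With s18790 (1325) it was 809 with median scaling (173 higher and 636 lower, against 642 and 683), 430 with only the groups compared, 834 with the block, 3117 with weights, 2795 without both arrays and 583 to 1793 with 1 array left out. Between siRNAs (668) these were 200, 296, 1577, 1644 and 205 to 1082, and with median scaling the total was 693 but its split was 102 higher and 591 lower, against 373 and 295.

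Of the 10 member probes, 1 was called with s18789 under array weights. With s18790, 2 were called without background correction, with an offset of 50, with the authors' log2 values and with detection on all arrays, 3 with weights and without both arrays, and 1 to 3 with 1 array left out. Between siRNAs, 1 was called with median scaling and 2 to 3 with 1 array left out. That count was 3 without background correction, with an offset of 50 and with the authors' log2 values. It was also 3 with detection on all arrays, with weights and without both arrays. Median scaling shifted the median of all probes by -0.14 between the siRNAs, against 0.01. The replicate block gave MYCN differences with adjusted p of 0.00244 with s18790, 0.0202 between siRNAs and 0.632 with s18789, and 3 of 12 arrays correlated best with their own number.

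Differences that were called in no setting changed sign as follows. With median scaling, those between siRNAs became -0.11 (MYC), -0.072 (MXD3) and -0.16 (MLX). With array weights they became -0.040 (MYC), -0.035 (MXD3) and -0.17 (MLX), those with s18789 0.020 (MNT) and -0.011 (MGA) and that of MLX with s18790 -0.030. Without both arrays the same were -0.041, -0.051, -0.20, 0.026, -0.065 and -0.064. With 1 array left out, differences with s18789 ran from -0.10 to 0.13 (MAX), -0.12 to 0.026 (MNT) and -0.065 to 0.18 (MGA), that of MLX with s18790 from -0.045 to 0.31, and those between siRNAs from -0.041 to 0.074 (MYC), -0.051 to 0.23 (MXD3) and -0.20 to 0.15 (MLX). The cause of these changes was not tested. The slide as a block was not run, since no slide is given. Signal near background leaves MYCL, the second MYCN probe, 2 MAX probes and the second MLX probe without a level. The second MGA probe, detected on 1 array, was left out of the tests as well.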

Other observations

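Beside MYCN in the RefSeq gene order lie the noncoding genes MYCNUT and MYCNOS. The MYCNOS probe was detected on 0 of 12 arrays, so no level of the antisense transcript accompanies the MYCN values.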
